A study of Canis lupus familiaris with 16 samples.

Results

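Expression of 8 imprinted genes with roles in growth, *PEG3*, *PLAGL1*, *GNAS*, *GRB10*, *DLK1*, *PEG10*, *SGCE* and *MEST*, was followed through 16 canine soft tissue sarcomas. The genes were taken by symbol from a table of read counts for 41818 genes, and 7 of the 8 passed the filter on low counts, as did 15408 genes in all. The one left out was *DLK1*. That fibrosarcomas have less *PEG3* and more *GNAS* was known from the study when the genes were chosen, and the differences of both in that comparison are therefore given as a description, without a test. The study also names *PLAGL1* as higher in fibrosarcoma. Its test is printed, but its direction was known beforehand and the p-value is no independent support. RNA was extracted from formalin-fixed, paraffin-embedded tumor tissue and sequenced after removal of ribosomal RNA. By the molecular identity in the labels, 4 tumors were fibrosarcomas (FS, from dogs aged 9 to 13 years), 6 were peripheral nerve sheath tumors (PNST, 8 to 13 years) and 6 were perivascular wall tumors (PWT, 2 to 14 years). No drug, allele or other treatment is named in the labels for any of them. The molecular identity was set by the study from expression in these same tumors. It differs from the histological diagnosis for S1-10, a PWT by histology now among the PNST, and for S2-08, an FS by histology now among the PWT. A test between molecular groups is thus not independent of how the groups were made, and its p-values are too small for that reason. S1-04 and S1-05, both PNST, have identical clinical labels and may come from the same dog.

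An imprinted gene is transcribed mainly from the copy inherited from one parent, and several imprinted genes regulate growth before birth and become quiet in most adult tissues. Loss or gain of the imprint can change the dose of the gene, and such changes are known from several childhood and adult tumors. The counts do not separate the parental copies, and imprinting itself was not measured in these dogs.

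Levels are given as CPM, the usual depth-scaled unit for read counts, with library totals scaled by the trimmed mean of M-values (TMM). Between 507728 and 4311876 counts per tumor fell on genes (507728 to 2781899 in FS, 1545839 to 4311876 in PNST, 726025 to 2234165 in PWT). In S1-12, the FS with the fewest, 3 counts came to 5.42 CPM. The names of 9 tumors begin with S1 and those of 7 with S2, which may mark the sequencing group. The prefix was uneven over the types, with 3 of 4 FS, 5 of 6 PNST and 1 of 6 PWT carrying S1. Defining markers of the labelled types were weak guides. The summed level of 9 Schwann cell markers was 44.2 to 133 CPM in PNST, 20.6 to 48.6 CPM in PWT and 20.4 to 123 CPM in FS. The summed level of 10 pericyte and vascular smooth muscle markers was 385 to 727 CPM in PWT, 361 to 856 CPM in PNST and 586 to 1752 CPM in FS, and with these overlaps it did not single out the PWT. The 8 fibroblast markers summed to 17540 to 98205 CPM in FS, 15931 to 36184 CPM in PNST and 9408 to 22057 CPM in PWT. The 6 epidermal markers exceeded 500 CPM in 5 tumors (S1-02, S1-12, S1-04, S1-05 and S2-03), and the 7 skeletal muscle markers exceeded 100 CPM in 3 (S1-11, S1-07 and S2-09). In such bulk samples, fewer cells of a type and less RNA per cell cannot be told apart.

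**Figure D1:**
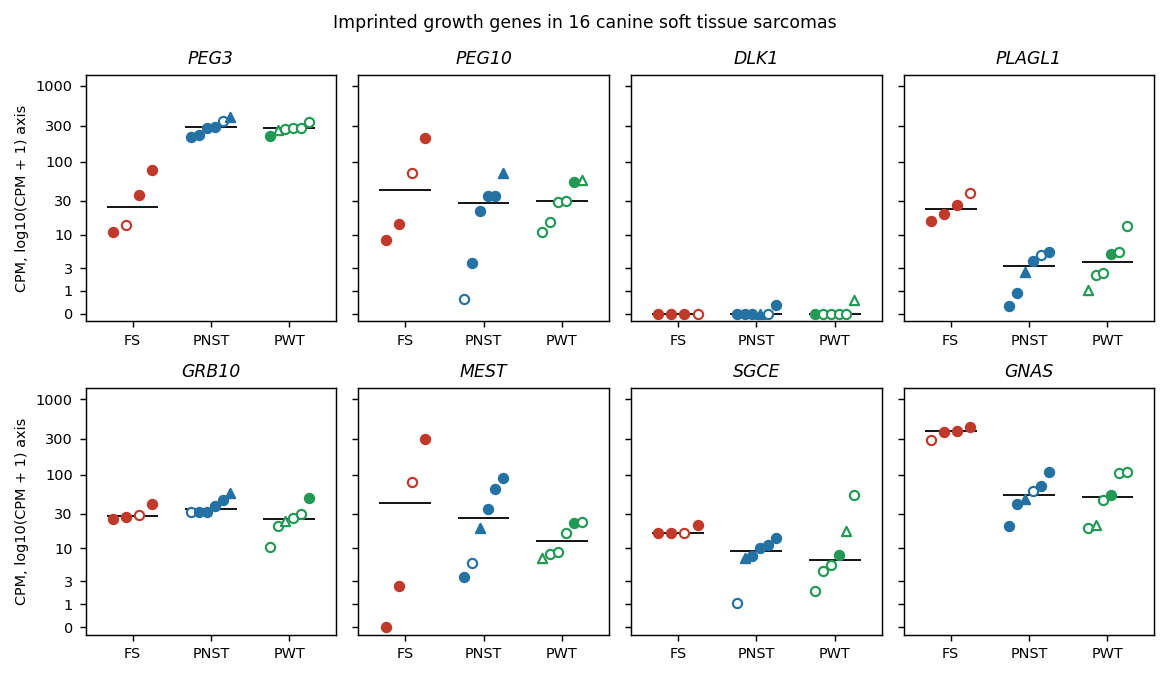
CPM of the 8 genes in each tumor, on a log10(CPM + 1) axis labelled in CPM, by molecular type (FS red, PNST blue, PWT green). Filled symbols are S1 tumors, open symbols S2 tumors, triangles S1-10 and S2-08, and lines group medians. The 4 FS lie below the other 12 tumors in *PEG3* and above them in *PLAGL1* and *GNAS*, whereas the types overlap in *PEG10*, *GRB10*, *MEST* and *SGCE*.

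FS were first compared with PNST and PWT pooled (edgeR's quasi-likelihood test, Benjamini-Hochberg adjustment over all 15408 genes, called where the adjusted p-value was below 0.05 and the log2 fold change exceeded 1 in size). The test called *PLAGL1* higher and did not call *PEG10*, *GRB10*, *MEST* or *SGCE*, while the level of *PEG3* was lower in FS and that of *GNAS* higher. In this comparison 1457 genes were called, 9.46% of those tested (5.78% higher and 3.68% lower). Since the direction of *PEG3*, *GNAS* and *PLAGL1* was known when the genes were chosen, no count of called members is read against this share. The CPM of the 4 FS did not overlap with those of the other 12 tumors for *PEG3*, *PLAGL1* and *GNAS*, and 3.21% of all tested genes were separated in this way (1.53% with the FS above, 1.68% with the FS below). For the same reason the separation of these genes is a description and is not read against that share.

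*PEG3* encodes a large zinc finger protein that is expressed from the paternal copy and binds DNA to repress its targets, and it is known for effects on growth, fat storage and maternal behavior. In FS it stood at 35.5 CPM in S1-02, 78.2 CPM in S1-11, 10.8 CPM in S1-12 (6 counts) and 13.9 CPM in S2-06. The level in PNST ran from 213 CPM (S1-04) over a median of 284 CPM to 387 CPM (S1-10), and in PWT from 216 CPM (S1-07) over a median of 275 CPM to 330 CPM (S2-09). The highest FS was thus 2.73-fold below the lowest of the other tumors. The group means were 34.6 ± 31.0 CPM in FS (SD, n = 4), 289 ± 67.2 CPM in PNST (SD, n = 6) and 272 ± 36.5 CPM in PWT (SD, n = 6). The 12 PNST and PWT spanned only a 1.81-fold range, whereas the 4 FS spanned a 7.22-fold range. The log2 fold change in FS was -2.98 (SE 0.42), and without S1-11, the FS with the most *PEG3*, it was -3.74. S2-08, an FS by histology, had 262 CPM, inside the range of the PWT. With tumors grouped by histology the log2 fold change was -1.80.

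The direction was the same within each prefix. Among S1 tumors, 3 FS had 10.8 to 78.2 CPM of *PEG3*, 5 PNST had 213 to 387 CPM and the single PWT had 216 CPM. Among S2 tumors, the single FS had 13.9 CPM, the single PNST 343 CPM and the 5 PWT 262 to 330 CPM. The partners of PEG3, a list that holds the ubiquitin ligases SIAH1 and SIAH2 and genes of p53-dependent cell death and of TNF signalling, comprised 8 genes, all tested. Of these, 1 was called higher in FS and 0 lower, with a median log2 fold change of -0.34 against 0.00386 over all genes. Among all tested genes 5.78% were called higher and 3.68% lower. *SIAH2* had a log2 fold change of 2.10 (adjusted p = 0.00220), with a mean of 58.0 CPM in FS, 14.3 CPM in PNST and 12.1 CPM in PWT. It was called in 30 of 31 alternative settings, over which its log2 fold change ran from 1.24 to 2.37.

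*PLAGL1*, also known as ZAC1, encodes another zinc finger transcription factor expressed from the paternal copy, which can halt the cell cycle and regulates a group of other imprinted genes. It was found at 15.5 CPM in S1-02 (44 counts), 25.9 CPM in S1-11 (48 counts), 19.9 CPM in S1-12 (11 counts) and 37.6 CPM in S2-06 (81 counts). All 4 FS lay above all other tumors, of which 11 had 0.281 to 5.58 CPM. The exception among the PWT was S2-03 with 13.4 CPM (34 counts), so that the gap between the lowest FS and the highest other tumor was only 1.15-fold. Counting error alone spanned 11.2 to 20.7 CPM in S1-02 and 9.31 to 18.8 CPM in S2-03 (95% exact Poisson intervals), which overlap. The means were 24.7 ± 9.62 CPM in FS (SD, n = 4), 3.04 ± 2.17 CPM in PNST (SD, n = 6) and 4.96 ± 4.50 CPM in PWT (SD, n = 6). The log2 fold change in FS was 2.63 (SE 0.54), that is 6.21-fold higher (edgeR, adjusted p = 0.00435). *PLAGL1* passed the filter on low counts only through the FS, all 4 of which reached 10 counts. Outside the FS only S1-04 (18 counts) and S2-03 (34 counts) did so. The p-value is no support for this reason as well.

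The *PLAGL1* call was made in 29 of 30 alternative settings that could test the gene, among them 16 of 16 with 1 tumor left out, where the log2 fold change ran from 2.35 to 3.03. It was lost with tumors grouped by histology (2.23, adjusted p = 0.0708). S2-08, the tumor that moves between FS and PWT, had 1.08 CPM. Among S1 tumors alone the log2 fold change was 2.78 (adjusted p = 0.0337), and among S2 tumors the single FS had 37.6 CPM against 1.08 to 13.4 CPM in 6 others. S2-03 and S1-02, the tumors on each side of the gap, were both among the 5 with over 500 CPM of epidermal markers. Without those 5, *PLAGL1* did not pass the filter on low counts and was not tested, although S1-11 and S2-06 remained above the other 9 tumors, which had 0.281 to 5.51 CPM. The part of the epidermal markers in the levels of *PLAGL1* was not tested.

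The PLAG family and the reported targets of PLAGL1, a list of 9 of which 8 were tested, had 4 genes called higher in FS and 0 lower (median log2 fold change 1.05). The shares of all tested genes were 5.78% higher and 3.68% lower. *ADCYAP1R1*, the receptor of the neuropeptide PACAP and a textbook target of PLAGL1, had a log2 fold change of 2.94 (adjusted p = 0.00144), with 23.8 ± 19.3 CPM in FS (SD, n = 4), 3.73 ± 1.99 CPM in PNST and 2.52 ± 1.54 CPM in PWT (SD, n = 6 each). It was called in 31 of 31 alternative settings (2.36 to 3.72), although the lowest FS had only 1.81 CPM, inside the range of the other tumors. *PLAG1*, the growth-promoting relative of PLAGL1 that is activated in several benign tumors, had a log2 fold change of 2.70 (adjusted p = 0.0197) that rested on S1-11. Its highest FS had 100.8 CPM, and without S1-11 the log2 fold change was -0.25 and the gene was not called. The collagen genes *COL1A1* (1.81, adjusted p = 0.0282) and *COL3A1* (1.61, adjusted p = 0.0403) completed the 4, and both were also on the list of fibroblast markers. Without S1-11 they were 0.82 and 0.39 and not called, and *COL3A1* also lost its call without any one of 7 other tumors. The count in this list was 1 with tumors grouped by histology and 2 with the prefix as a term.

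**Figure D2:**
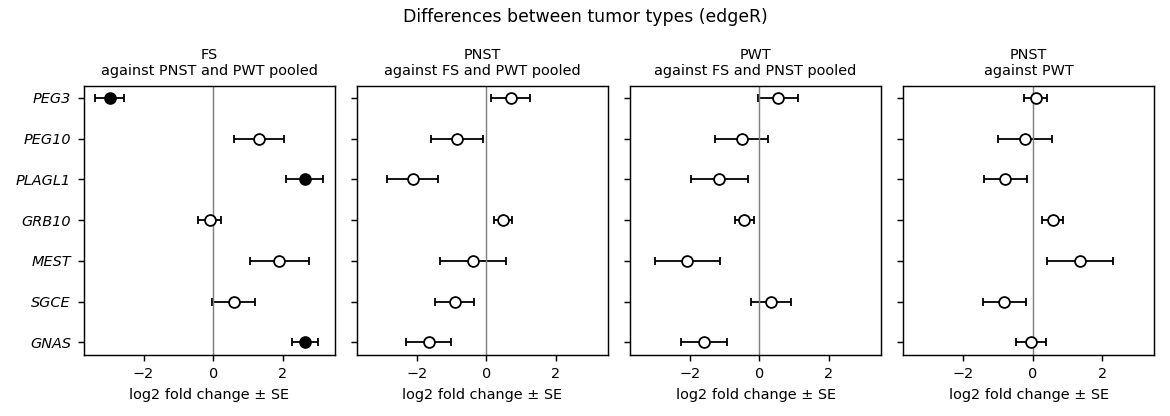
Log2 fold changes from edgeR (points) of the 7 tested genes in the 4 comparisons, with standard errors derived from its F statistic (bars). Filled points mark an adjusted p-value below 0.05 and a log2 fold change over 1 in size. *PLAGL1* is filled in FS, with its direction known beforehand. The filled points of *PEG3* and *GNAS* in FS are a description and no test result, since both were chosen with this difference known. In each other comparison 0 of 7 genes are filled.

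*GNAS* encodes the alpha subunit of the stimulatory G protein, which couples hormone receptors to adenylyl cyclase and so raises cyclic AMP. Activating mutations of this gene are known from fibrous dysplasia of bone and several endocrine tumors. It stood at 373 CPM in S1-02, 379 CPM in S1-11, 428 CPM in S1-12 and 293 CPM in S2-06. The PNST ran from 20.3 CPM (S1-09) over a median of 54.6 CPM to 108 CPM (S1-04), and the PWT from 19.2 CPM (S2-11) over a median of 50.8 CPM to 110 CPM (S2-03). The lowest FS was thus 2.67-fold above the highest other tumor, and in contrast to *PEG3* the 4 FS lay close together, within a 1.46-fold range. The means were 368 ± 55.7 CPM in FS (SD, n = 4), 58.2 ± 29.97 CPM in PNST (SD, n = 6) and 59.8 ± 40.3 CPM in PWT (SD, n = 6). The log2 fold change was 2.65 (SE 0.38), and over 31 alternative settings it ran from 2.26 with tumors grouped by histology to 2.90. The counts cover the whole locus, which has several promoters and an antisense transcript. Its transcripts cannot be told apart here, nor can strands, since the strand setting of the counting is not given in the sources used here.

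The cyclic AMP and protein kinase A list holds enzymes and anchoring proteins of this signalling and also the transcription factor gene *CREB3L1*. It had 5 of 31 tested genes called higher in FS and 1 lower, and its median log2 fold change was 0.55. The shares of all tested genes were 5.78% higher and 3.68% lower. *ADCY3*, one of the adenylyl cyclases that this G protein stimulates, rose by 2.32 on the log2 scale (adjusted p = 0.00205). Its level was 20.7 to 68.5 CPM in the 4 FS, against 3.38 to 17.0 CPM in PNST and 2.75 to 20.2 CPM in PWT. The lowest FS was thus barely above the highest PWT. *ADCY3* was called in 31 of 31 alternative settings. *CREB3L1*, a transcription factor of the CREB3 family that resides in the endoplasmic reticulum and drives collagen synthesis in bone, had 57.1 to 195 CPM in FS and at most 43.7 CPM elsewhere (3.199, adjusted p = 0.00359). *PDE8A* (1.03, adjusted p = 0.00268) and *PDE7B* (1.77, adjusted p = 0.0127), which both break cyclic AMP down, were also higher in FS, as was the adenylyl cyclase gene *ADCY4* (1.35, adjusted p = 0.0290). The call of *PDE8A* was lost without S1-02 (0.88) or S1-11 (0.98), that of *PDE7B* without S1-02 (1.54) and that of *ADCY4* without S1-11 (1.15) or S1-12 (1.16). The gene called lower was *AKAP12*, a scaffold for protein kinase A (-2.12, adjusted p = 0.0210), which was not called without S1-11 (-2.01, adjusted p = 0.0708). Enzymes that make and that degrade cyclic AMP were thus both among the called genes. With tumors grouped by histology 1 gene of this list was called.

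Over all genes 9.46% were called. Of 10 tested alpha subunits of other G proteins, 1 was called higher in FS and 0 lower, with a median log2 fold change of -0.07. It was *GNAQ*, which activates phospholipase C (1.40, adjusted p = 0.0248). Of 11 tested beta and gamma subunits, 1 was called higher and 0 lower, *GNG11* (1.97, adjusted p = 0.0350). Without S1-11 both lost their call (1.34 and 2.14), as *GNAQ* did without S1-02 (1.37) or S2-06 (1.40), and *GNG11* without S1-12 (0.63), S1-03 (1.89), S1-10 (1.96) or S2-11 (1.93).

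*GRB10* encodes an adaptor that binds the insulin and IGF1 receptors and restrains their signalling. Its level was 41.1, 27.0, 25.3 and 28.8 CPM in S1-02, S1-11, S1-12 and S2-06. It ran from 31.5 CPM (S2-07) to 57.8 CPM (S1-10) in PNST, with a median of 35.2 CPM, and from 10.3 CPM (S2-03) to 49.1 CPM (S1-07) in PWT, with a median of 25.4 CPM. The types overlapped throughout, and in FS the log2 fold change was -0.10 (SE 0.32, adjusted p = 0.887). An interval of 2 SE to each side ran from -0.75 to 0.55, so a change of 2-fold in either direction lay outside it. Of 12 tested partners in insulin and mTOR signalling, 0 were called in FS (2 had an unadjusted p-value under 0.05, and DESeq2 called 1 and limma-voom 0). The share called among all tested genes was 9.46%. *INSR*, the insulin receptor, stood at 46.5 to 96.9 CPM in FS, 52.3 to 68.7 CPM in PNST and 24.4 to 81.2 CPM in PWT. *IGF1R*, the IGF1 receptor, stood at 44.6 to 161 CPM, 66.8 to 190 CPM and 40.4 to 242 CPM in the same order.

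*DLK1*, a transmembrane relative of the Notch ligands that keeps preadipocytes from maturing, was counted 0 times in 14 tumors and once each in S1-09 and S2-08. At these depths a count of 0 allows up to 0.844 CPM in the deepest of the 14 and up to 5.42 CPM in the shallowest. Of 9 tested Notch receptors, ligands and targets, 0 were called higher in FS (5.78% of all genes) and 1 lower (3.68% of all genes). This was *NOTCH2* (-1.10, adjusted p = 0.0118), with 500.1 to 985 CPM in FS and 1112 to 2165 CPM in the other tumors, and without S1-12 it was -0.97 and not called.

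*PEG10* derives from a retrotransposon, is expressed from the paternal copy and is needed for the placenta. It lies next to *SGCE*, which encodes epsilon-sarcoglycan, a membrane protein of the dystrophin complex. The level of *PEG10* was 8.43 CPM in S1-02, 203 CPM in S1-11, 14.4 CPM in S1-12 and 70.2 CPM in S2-06. The PNST ran from 0.553 CPM (1 count, S2-07) over a median of 28.2 CPM to 71.4 CPM (S1-10), and the PWT from 11.1 CPM (S2-03) over a median of 29.3 CPM to 56.6 CPM (S2-08). S1-11 alone exceeded the range of the other types, 2.85-fold above the next tumor. The log2 fold change in FS was 1.32 (SE 0.71, adjusted p = 0.259), and without S1-11 it was 0.07. Of 7 other tested genes that derive from retrotransposon gag sequences, 0 were called in FS (1 had an unadjusted p-value under 0.05, and DESeq2 called 0 and limma-voom 1). The share called among all tested genes was 9.46%.

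*SGCE* was even over the FS, with 16.2 CPM in S1-02, 21.0 CPM in S1-11, 16.2 CPM in S1-12 (9 counts) and 16.3 CPM in S2-06. It ran from 1.11 CPM (2 counts, S2-07) over a median of 8.94 CPM to 13.8 CPM (S1-05) in PNST, and from 1.98 CPM (S2-03) over a median of 6.70 CPM to 54.1 CPM (S2-09) in PWT. All 4 FS lay above all 6 PNST, but 2 PWT, S2-08 with 17.3 CPM and S2-09, lay within or above the FS. The share of all genes with FS and PNST apart in this way was not computed, so this separation is a description. Counting error alone spanned 7.43 to 30.8 CPM in S1-12 and 8.84 to 20.5 CPM in S1-05 (24 counts, exact Poisson intervals), which overlap. The log2 fold change in FS was 0.59 (SE 0.62, adjusted p = 0.599). Of all tested genes 5.78% were called higher in FS and 3.68% lower. In the other genes of the dystrophin and sarcoglycan complex, 3 of 11 tested were called higher in FS and 1 lower. Among them, *SSPN* (1.63, adjusted p = 0.0217) and *DMD*, which encodes dystrophin itself (1.58, adjusted p = 0.0224), were not called without S1-11 (1.02 and 0.82), a tumor with 969 CPM of skeletal muscle markers. *UTRN*, which encodes the dystrophin relative utrophin, fell by 2.11 on the log2 scale (adjusted p = 0.00288), with 376 to 963 CPM in FS and 1221 to 4737 CPM in the other tumors. The sarcoglycan genes *SGCB* (56.5 to 136 CPM in FS and 44.8 to 127 CPM elsewhere) and *SGCD* (89.7 to 167 CPM and 43.7 to 275 CPM) overlapped between the types. None of the 4 was called with tumors grouped by histology.

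*MEST*, also PEG1, is a hydrolase-like gene of mesoderm that is expressed from the paternal copy and is linked to the enlargement of fat cells. It varied most among the FS, with 2.46 CPM in S1-02 (7 counts), 298 CPM in S1-11, 0 counts in S1-12 and 81.3 CPM in S2-06. In S1-12 a count of 0 allows up to 5.42 CPM. The PNST ran from 3.58 CPM (S1-09) over a median of 26.8 CPM to 91.1 CPM (S1-04), and the PWT from 7.01 CPM (S2-08) over a median of 12.7 CPM to 23.4 CPM (S2-04). The FS thus held both the highest and the lowest tumors of the series. The log2 fold change in FS was 1.91 (SE 0.84, adjusted p = 0.160), and without S1-11 it was 0.19. Without the 5 tumors with over 500 CPM of epidermal markers, which leaves S1-11 and S2-06 as the FS, it was 3.41 and called (adjusted p = 0.0108). Both low FS, S1-02 and S1-12, were among those 5, and the part of the epidermal markers (1355 and 793 CPM) in their *MEST* level was not tested.

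**Figure D3:**
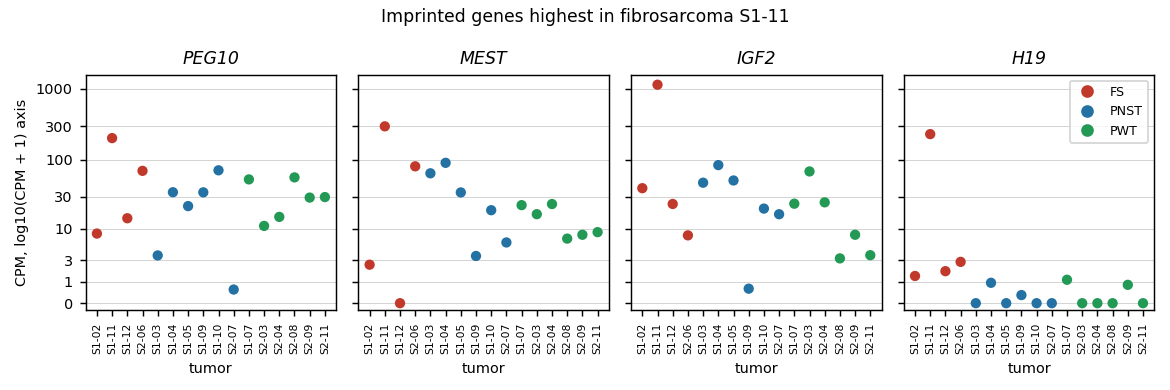
CPM of *PEG10*, *MEST*, *IGF2* and *H19* in each tumor, on a log10(CPM + 1) axis labelled in CPM (FS red, PNST blue, PWT green). S1-11 is the highest of 16 tumors for all 4 genes, by 2.85-fold for *PEG10* and 83.0-fold for *H19* over the next tumor. For *H19* the next tumor, S2-06, had only 6 counts, so that ratio is imprecise.

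S1-11 stood apart for the imprinted growth factor gene *IGF2* and for the non-coding gene *H19*, which lies beside it and is expressed from the opposite parental copy in human and mouse. *IGF2* had 1140.4 CPM in S1-11, against 39.7 CPM in S1-02, 23.5 CPM in S1-12, 7.90 CPM in S2-06 and 0.597 to 84.6 CPM in the 12 other tumors. *H19* had 231 CPM in S1-11 and at most 2.79 CPM (6 counts, S2-06) in any other tumor. S1-11 was thus the highest tumor for *IGF2* by 13.5-fold and for *MEST* by 3.27-fold, and it was also the tumor with the most skeletal muscle markers (969 CPM, the next being S1-07 with 426 CPM). S1-07 had 23.7 CPM of *IGF2*, 1.13 CPM of *H19* and 22.6 CPM of *MEST*. The part of the skeletal muscle markers in these levels of S1-11 was not tested. The tumor with the most *PEG3*, *PLAGL1*, *GRB10*, *SGCE* or *GNAS* was another than S1-11.

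Of 51 further genes that are imprinted in human or mouse, 46 were in the table and 30 were tested. In FS, 2 of these were called higher and 3 lower, 5 of 30 in all, with a median log2 fold change of 0.27 (21 positive, 9 negative). Among all tested genes 9.46% were called, 5.78% higher and 3.68% lower. *IGF2* was called higher (3.35, adjusted p = 0.0238), but without S1-11 its log2 fold change was -0.32 and the gene was not called. *TFPI2*, an inhibitor of serine proteases in the extracellular matrix that lies in the *PEG10* domain, had 4.21 to 95.7 CPM in FS and at most 6.20 CPM elsewhere (3.31, adjusted p = 0.00403), and it was not called without S1-12 (1.53, adjusted p = 0.126). *PPP1R9A*, which encodes the actin-binding protein neurabin and is the other neighbor of *PEG10*, fell by 2.38 on the log2 scale (adjusted p = 0.00374), with 14.0 to 56.5 CPM in FS and 58.9 to 324 CPM in the other tumors. *PHACTR2*, which lies near *PLAGL1* and binds actin and protein phosphatase 1, fell by 2.24 (adjusted p = 0.00395), with 77.1 to 135 CPM in FS and 252 to 1098 CPM elsewhere. Both were called in 30 of 31 alternative settings. *CDKN1C*, the cell cycle inhibitor p57 (-1.86, adjusted p = 0.0490), had 1.40 to 16.2 CPM in FS and 7.18 to 59.8 CPM elsewhere, and it was called in 13 of 31 settings, being lost without any one of 12 tumors (from -1.91 to -1.45). All 5 lost their call with tumors grouped by histology.

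The genes that set, keep or erase methylation imprints, such as the DNA methyltransferases, had 3 of 14 tested members called higher in FS and 0 lower, with 13 of 14 log2 fold changes positive and a median of 0.75. Over all genes 5.78% were called higher. *TET1*, an enzyme that oxidizes methylated cytosine and so opposes the methyltransferases, had 25.99 to 84.7 CPM in FS, 8.65 to 24.2 CPM in PNST and 13.8 to 34.0 CPM in PWT (1.90, adjusted p = 0.00101), and it was called in 31 of 31 alternative settings. *DNMT3A*, a methyltransferase that sets new methylation, had 56.9 to 164 CPM in FS and 23.6 to 82.1 CPM elsewhere (1.30, adjusted p = 0.00486). *UHRF1*, which brings the maintenance methyltransferase to newly copied DNA, had 20.4 to 88.4 CPM in FS and 5.51 to 27.3 CPM elsewhere (1.59, adjusted p = 0.00948), and without S1-11 it was 0.96 and not called. *DNMT3A* and *UHRF1* were not called with tumors grouped by histology or in S1 tumors alone. Genes with opposite roles in DNA methylation were thus called higher in FS, each with a range that overlapped that of the other tumors. DNA methylation was not measured.

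**Figure D4:**
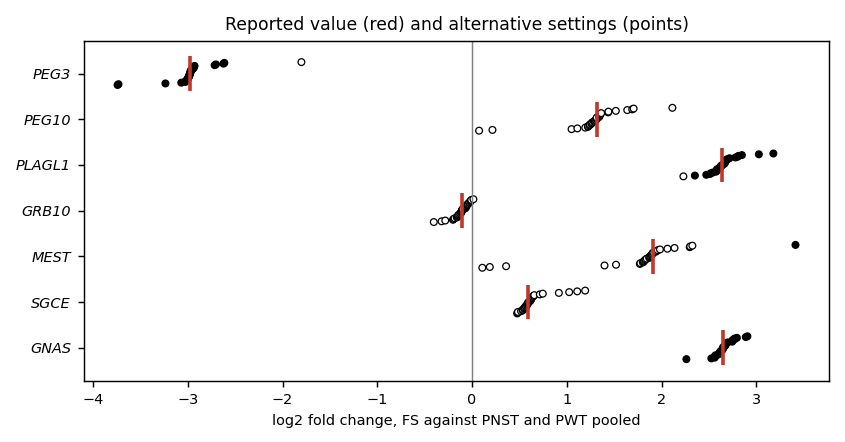
Log2 fold change in FS of the 7 tested genes in the reported fit (red line) and in each alternative setting (points, filled where called). *MEST* runs from 0.11 to 3.41 and *PEG10* from 0.07 to 2.11. *GNAS* runs from 2.26 to 2.90. *PEG3* and *GNAS* were chosen with their difference known, so their ranges and filled points are a description and no support.

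PNST were then compared with FS and PWT pooled. Of the 7 genes, 0 were called, as were 0 of all genes (0%), while 2 of the 7 and 2415 genes in all had an unadjusted p-value under 0.05. DESeq2 called 293 genes and limma-voom 8 in this comparison, and both called 0 of the 7. The 2 were *PLAGL1*, with a log2 fold change of -2.12 (adjusted p = 0.217), and *GNAS* with -1.66 (adjusted p = 0.257), and the pooled group held the FS. In the 11 lists, 0 genes were called and 0 to 7 per list had an unadjusted p-value under 0.05. DESeq2 called 1 gene of the beta and gamma subunits and 1 of the dystrophin complex, and limma-voom called 0 in all lists.

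PWT against FS and PNST pooled gave 0 calls of 7 as well, where 327 genes were called in all, 2.12% of those tested (1.41% higher and 0.714% lower). DESeq2 and limma-voom likewise called 0 of the 7. *MEST* (-2.08, adjusted p = 0.196) and *GNAS* (-1.60, adjusted p = 0.165) had an unadjusted p-value under 0.05. The pooled group held the FS here too. Their high *GNAS* was known when the genes were chosen, so the value of *GNAS* is a description. In the lists, 2 genes were called. The beta subunit gene *GNB4* was higher in PWT (1.05, adjusted p = 0.0388), with 213 to 512 CPM against 110 to 329 CPM in the other tumors, and *COL1A1* was lower (-2.03, adjusted p = 0.0458). They were called in 10 and 11 of 31 alternative settings, and each lost its call without any one of 11 tumors (from 0.91 to 1.12 and from -2.22 to -1.94). Once the prefix entered the model neither was called, nor was any other gene, while 1633 genes had an unadjusted p-value under 0.05.

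PNST and PWT were finally compared directly, a comparison that does not use the mean of the FS. Again 0 of 7 genes were called, and 0 had an unadjusted p-value under 0.05, whereas 26 genes were called in all (0.169% of those tested, 0.0714% higher and 0.0974% lower, in genes 11 higher and 15 lower, or 7 higher and 5 lower with upper quartile factors). DESeq2 and limma-voom called 0 of the 7. For *PEG3* the log2 fold change was 0.08, with an interval of 2 SE to each side from -0.60 to 0.76, and for *GNAS* it was -0.05, from -0.90 to 0.80. In this fit both intervals lay within a 2-fold difference. The fit has no prefix term and the prefix was uneven between PNST and PWT, so larger differences between the types are not excluded. With 1 tumor left out the estimate for *GNAS* itself ran from -0.33 to 0.23. The interval was wider for *PLAGL1* (-0.79, from -2.03 to 0.44), *PEG10* (-0.23, from -1.79 to 1.33), *SGCE* (-0.82, from -2.06 to 0.43) and *MEST* (1.36, from -0.51 to 3.23), so that differences of over 2-fold remained possible. *GRB10* was somewhat higher in PNST (0.57, from -0.02 to 1.16, adjusted p = 0.292), within the error of the test. Its partner *RPTOR*, which encodes the raptor subunit of the mTOR complex, was the only called gene of the 11 lists (1.10, adjusted p = 0.049997), with 72.8 to 102 CPM in PNST and 27.3 to 68.0 CPM in PWT. It was called in 10 of 30 alternative settings, and not without any one of 10 tumors (from 1.01 to 1.31) or when the prefix entered the model.

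The order of the 3 types by mean CPM was thus FS, PWT and PNST for *PLAGL1* and *GNAS*, and the reverse for *PEG3*, with PNST and PWT not separated in any of the 3 genes. Over the 16 tumors, *PLAGL1* and *GNAS* had a Spearman's rho of 0.868, and *PEG3* had -0.697 with *PLAGL1* and -0.609 with *GNAS*. These values are a description, since all 3 genes separate the FS from the rest. The other pairs of members had rho between -0.441 (*PEG3* and *SGCE*) and 0.426 (*PEG10* and *MEST*).

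The genes with the most similar pattern were taken as the 3 of all tested genes with the highest Spearman's rho to each member over the 16 tumors, which share libraries and depth. For *GNAS* they were *ITPKB* (0.982), an inositol phosphate kinase, *PALM2AKAP2* (0.974), which holds an anchor of protein kinase A, and *CDK6* (0.956), a kinase of the G1 phase. For *PLAGL1* they were the chromatin remodeler gene *BAZ1A* (0.959), *CDK17* (0.938) and the adhesion gene *CLMP* (0.938). *PEG3* was followed by *LOC119864158* (0.943), *BMPER* (0.912), which encodes a regulator of bone morphogenetic proteins, and *ARHGAP6* (0.897), and all 3 were lower in FS, as *BMPER* with a mean of 16.5 CPM in FS, 223 CPM in PNST and 177 CPM in PWT. The highest values were lower for the 4 genes that did not separate the FS. They were 0.874 for *GRB10* (*OGFOD2*), 0.844 for *SGCE* (*PACSIN3*), 0.838 for *MEST* (*SLC16A9*) and 0.806 for *PEG10* (the receptor gene *EPHB2*).

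The nearest tested protein-coding genes on each side of the 8 genes, in the order of the RefSeq assembly UU_Cfam_GSD_1.0, were examined to see whether the differences extended along the chromosome. All 8 genes were found in that annotation. It is not the assembly the reads were aligned to, and this choice was made after the values were seen. Of 14 neighbors that are no members, 1 was called in FS, where 9.46% of all tested genes were called. The count is near that share and is not read as a result about the neighbors. The called gene was *PPP1R9A* beside *PEG10*, which was itself not called. The 14 log2 fold changes ran from -2.38 to 0.65. The neighbors of *GNAS*, *NPEPL1* (-0.51) and *NELFCD* (-0.08), and those of *PLAGL1*, *ZC2HC1B* (0.14) and *SF3B5* (-0.17), were not called. The nearest tested genes to *PEG3* lay farther off, *LOC102155336* (-0.40) at 2 protein-coding genes' distance and the zinc finger gene *ZFP28* (-0.41) at 11, and were not called either. Those of *GRB10* lay 3 and 6 genes away, and those of the other members 1 gene away. *ZIM2*, which shares the *PEG3* domain, had 1 count in all tumors together. The genes that flank *DLK1*, *BEGAIN* (0.61) and *RTL1* (0.29), passed the filter, although *DLK1* did not.

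Genes of an imprinted domain can share their control, and so pairs of neighbors were compared across tumors on the log2(CPM + 1) scale. *PEG10* and *SGCE* had a Pearson's r of 0.505 over the 16 tumors (permutation p = 0.0473, adjusted 0.233 over the 24 correlations computed) and a Spearman's rho of 0.382 (permutation p = 0.144, adjusted 0.327). Without S2-07 and S1-11, the tumors farthest from the median of *PEG10*, r was 0.136 (permutation p = 0.644), so the relation rested on them. Within the prefixes r was 0.012 in 9 S1 tumors (exact permutation p = 0.977) and 0.728 in 7 S2 tumors (exact permutation p = 0.0550). *MEST* and its neighbor *COPG2*, a subunit gene of the vesicle coat that overlaps with it in that assembly, had r = 0.488 (permutation p = 0.0558, adjusted 0.233) and rho = 0.321 (permutation p = 0.225, adjusted 0.450). Without S1-12 and S1-11 r was 0.176. It was 0.767 in the 6 PNST (exact permutation p = 0.0583) and -0.730 in the 6 PWT (exact permutation p = 0.119). In 9 S1 tumors r was 0.714 (exact permutation p = 0.0261, adjusted 0.233) and in 7 S2 tumors -0.437 (exact permutation p = 0.322). None of the 24 correlations passed the adjustment for multiple tests (all two-sided).

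**Figure D5:**
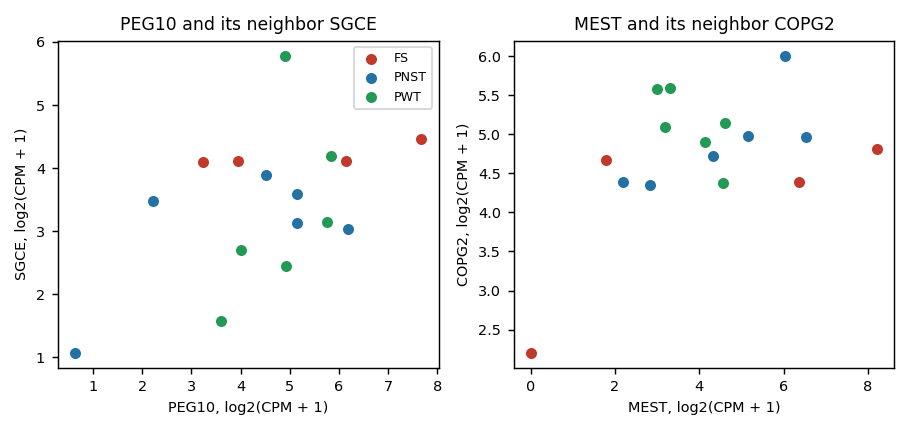
*PEG10* against *SGCE* and *MEST* against *COPG2* in each of the 16 tumors, both axes as log2(CPM + 1), with FS red, PNST blue and PWT green. A single low tumor lies at the bottom left of each panel (S2-07 for *PEG10* and *SGCE*, S1-12 for *MEST* and *COPG2*).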

How the data were processed

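The authors extracted RNA from fixed sections, prepared total RNA libraries for Ion Proton sequencing, aligned reads to the assembly ROS-canfam-01 with STAR, and deposited raw read counts per gene from htseq-count without normalization. The strand setting and tool versions are not given in the sources used here. The 9 S1 tumors had 3 columns of counts each, taken as runs and summed, and the 7 S2 tumors 1, so each tumor was 1 sample. That samples come from separate dogs is not stated, and p-values measure the spread between these tumors.

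Genes reaching 10 counts in 4 or more of the 16 tumors were tested with edgeR 4.0.16 (quasi-likelihood, TMM factors, R 4.3.3), and called where the Benjamini-Hochberg adjusted p-value was below 0.05 and the log2 fold change exceeded 1 in size. DESeq2 1.42.0, limma-voom (limma 3.58.1), other factors and filters, histology groups, the prefix as a term and each tumor left out were alternatives. The SE of an edgeR log2 fold change was derived as its size divided by the square root of the F statistic of the test. The fits were tested on simulated data. Levels are TMM-scaled CPM, with a pseudocount of 1 for correlations, which used 100000 resamples or exact enumeration. Poisson intervals and the limit of 3 counts for a count of 0 cover counting error only.

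Named were the 8 genes, the 3 genes most like each in rank, and of each list up to 4 called genes with the smallest p, with partners or neighbors of a member. *ADCY4*, *AKAP12*, *H19*, *CDKN1C* and the neighbors were named with their values known. The genes and lists were chosen with earlier results of these data known. The lists were other imprinted genes, cyclic AMP and protein kinase A signalling, G protein alpha subunits, beta and gamma subunits, the dystrophin and sarcoglycan complex, partners of GRB10, the PLAG family and PLAGL1 targets, partners of PEG3, gag-derived genes, Notch receptors and the DLK family, and imprint maintenance. A gene of the lists is not reported here. No sequence is shown, because no genome of the build was used here.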

Additional observations from a re-analysis of the deposited data

Results flagged for a closer look

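In 21 groups of tumors (7 genes in 3 types), 3 held a tumor whose gap to its neighbor, relative to the range of the group, exceeded Dixon's 95% critical value, and chance alone flags about 1 in 20 groups. *PLAGL1* in PWT was highest in S2-03 with 13.4 CPM, next to 5.51 CPM. *SGCE* in FS was highest in S1-11 with 21.0 CPM, above 3 tumors between 16.2 and 16.3 CPM. *SGCE* in PWT was highest in S2-09 with 54.1 CPM, next to 17.3 CPM.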

How the results depend on the processing

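*PLAGL1* was called in FS in 29 of 30 alternative settings and lost its call with histology groups. Its direction was known beforehand, so these settings are no independent support. *PEG3* and *GNAS*, whose difference was known when they were chosen, are not counted here. With 1 tumor left out, 0 members were called in the comparisons other than that of FS. Some added settings, DESeq2 with a prefix term and the omission of tumors rich in epidermal or skeletal muscle markers, were chosen after seeing the data. S1-12 has the fewest counts, which limits the low values of FS most.

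Calls over all genes moved between settings. For FS they were 1457, and 205 with histology groups, 827 in S1 tumors alone, 2230 with DESeq2 and a prefix term and 657 without the muscle-rich tumors. For PNST they were 0, and 2 without a filter, 293 with DESeq2, 170 with DESeq2 and a prefix term, 8 with limma-voom and 1 without the epidermis-rich tumors. For PWT they were 327, and 179 with plain CPM, 128 without a filter, 879 with DESeq2, 101 with DESeq2 and a prefix term, 140 without S1-10 and S2-08, 1 in S2 tumors alone, 20 without the muscle-rich tumors, and 0 with histology groups, with the prefix as a term or without the epidermis-rich tumors. For PNST against PWT they were 26, and 12 with upper quartile factors, 541 with DESeq2, 149 with limma-voom, 1 without the epidermis-rich and 5 without the muscle-rich tumors. They were 0 with plain CPM, histology groups, the prefix term, without S1-10 and S2-08, or with S1-04 and S1-05 summed. With 1 tumor left out they ran from 911 (without S1-11) to 1583 for FS, from 0 to 3 for PNST, from 11 (without S2-11) to 487 for PWT and from 0 to 226 (without S2-07) for PNST against PWT. The causes were not tested. Smaller sets of tumors also leave fewer samples.

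Some small log2 fold changes of genes that were not called turned their sign. *GNAS* in PNST against PWT (-0.05) was 0.083 without a filter, 0.077 with limma-voom and 0.23 without the muscle-rich tumors, and with 1 tumor left out it ran from -0.33 to 0.23, positive without S1-03 (0.036), S1-09 (0.13), S1-10 (0.0039), S2-03 (0.23) or S2-09 (0.19). *PEG3* there (0.08) was -0.12 with histology groups, -0.022 without S1-10 and S2-08, -0.0082 with DESeq2 and a prefix term and from -0.010 (without S1-10) to 0.15 with 1 tumor left out. *PEG10* there (-0.23) ran from -0.76 to 0.023 (without S2-07) with 1 tumor left out, and was 0.0083 without S2-08. *SGCE* there (-0.82) ran from -1.06 to 0.19 (without S2-09), and was 0.19 without the muscle-rich tumors. In FS, *GRB10* was 0.013 with limma-voom. In PNST, *MEST* (-0.38) was 0.42 with limma-voom, from -0.90 to 0.91 (without S1-11) with 1 tumor left out, and 0.81 without the muscle-rich tumors. In PWT, *PEG10* (-0.51) was 0.47 with limma-voom and from -0.75 to 0.16 (without S1-11) with 1 tumor left out, and *SGCE* (0.33) was -0.29 with limma-voom, from -0.68 (without S2-09) to 0.57 with 1 tumor left out, and -0.56 without the muscle-rich tumors. The Pearson's r of *MEST* and *COPG2* was 0.643 with a pseudocount of 0.1, past the threshold before adjustment. No paired analysis was possible because the numbers of the tumors name single tumors and pair none across types.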
